A study of Mus musculus with 14 samples.

Results

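Olfactory receptor rows are the rows of a mouse liver expression table whose gene symbol is Olfr followed by a number. Of these, 1112 rows were described, among the 22850 rows of the table. The livers came from C57BL/6N mice whose diets began at 7 weeks of age, and 14 libraries were measured by RNA sequencing of total RNA after removal of ribosomal RNA. A first group of 5 libraries (HFWD+sugar) came from mice that ate a high-fat Western diet with 40% of energy from fat and had 42 g/L of sugar in their water, of which 55% was fructose and 45% sucrose. A second group of 5 libraries (HFWD) came from mice on that diet without the sugar. The third group of 4 libraries (chow) came from mice on standard chow with about 12% of energy from fat. The labels do not say outright that each library is a separate animal, so p-values measure the spread between these samples, which may be technical.

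Olfactory receptors are G protein-coupled receptors of sensory neurons in the nose, and each neuron uses a single receptor gene out of a very large family. An odorant that binds the receptor activates the G protein subunit encoded by Gnal and then the adenylyl cyclase Adcy3, and the cAMP made opens a cyclic nucleotide-gated channel with the subunits Cnga2, Cnga4 and Cngb1. The genes lie in dense clusters on many chromosomes, their coding part usually has no intron, and most members are silent in tissues other than the nose.

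Of the 1112 rows, 1000 (89.9%) stood at the floor of the table, a value of exactly 1, in all 14 livers. A value above 1 was found for 112 rows (10.1%) in at least 1 library, for 56 (5.04%) in at least 4, for 41 in at least 7 and for 25 (2.25%) in all 14. In the table as a whole, 64.6% of rows were above the floor in at least 4 libraries. A further 56 receptor rows were above it in 1 to 3 libraries, 41 of them in exactly 1, where their values were 1.28 to 21.4 units with a median of 2.65. Low values lay on steps that put the worth of 1 read at 2.47 to 6.85 units, so most of those values amount to about 1 read. When a value had to be worth at least 1 read, 97, 49 and 23 rows passed in at least 1, at least 4 and all 14 libraries.

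The number of receptor rows above the floor was 47 to 55 in HFWD+sugar livers, 46 to 50 in HFWD livers and 37 to 50 in chow livers. The 37 belonged to chow 4, which was also the shallowest library, with the equivalent of 3.77 M counted reads against 5.84 to 9.34 M in the others. Chow 4 likewise had the lowest share of all rows above the floor, 52.9% against 58.0% to 63.3% in the other 13 libraries. The part of depth in the receptor count was not tested. Together the receptor rows held 0.0629% to 0.0777% of all units in HFWD+sugar livers, 0.0615% to 0.0692% in HFWD livers and 0.0605% to 0.0626% in chow livers. The 0.0777% was that of HFWD+sugar 2, where the Olfr554 row was highest, and the next HFWD+sugar share was 0.0698%.

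Other chemosensory families, given for comparison, were also mostly at the floor. Above it in at least 4 libraries were 11 of 204 vomeronasal type 1 receptor rows (5.39%), 11 of 119 vomeronasal type 2 rows (9.24%), 2 of 3 taste type 1 rows, 0 of 15 trace amine-associated rows and 0 of 35 taste type 2 rows. All 7 receptors of a list reported outside the nose, Olfr2, Olfr16, Olfr78, Olfr544, Olfr558, Olfr734 and Olfr1393, were at the floor in every library. At these depths a level of less than about 1 read would not have been seen. A row can also differ from the gene of its name, as shown for Alb below. A row at the floor therefore does not show that its gene is silent.

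The downstream signalling genes did not share one level. Of 12 odorant signalling genes, 5 were above the floor in at least 4 libraries. Cnga4, a channel subunit, averaged 1491 units and Gnal 1005, both in all 14 libraries, whereas Cngb1 and Omp, the olfactory marker protein, were at the floor in all 14. Cnga2 was above the floor in 1 library. Of 10 genes for receptor trafficking and receptor choice, 6 were above the floor in at least 4 libraries. The highest was the row of Rtp1, a chaperone that brings receptors to the cell surface, at 7672 units. Among genes of the olfactory lineage, the G protein subunit Gng13 averaged 18.4 units, and Gap43, a protein of growing axons, was at the floor in all 14 libraries. These are levels of rows, and whether each row holds the level of the gene of its name was not tested.

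All 12 hepatocyte markers were above the floor in all 14 libraries. The Alb row, the gene of albumin, averaged 3036 units, and the Rassf6 row, which lies on the other strand of chromosome 5, averaged 683498. Row names and the level of the gene of that name can therefore differ in this table. The symbols of receptors, signalling genes and markers, above and below, name rows. Of 8 markers of olfactory sensory neurons, 4 were above the floor in at least 4 libraries (Rtp1, Gnal, Adcy3 and Gng13) and Omp and Stoml3 were at the floor in all 14. The summed level of the 8 rows was 7880 to 8713 units in HFWD+sugar livers, 8304 to 10710 in HFWD livers and 7999 to 8912 in chow livers. Most of it was the Rtp1 row, at a mean of 7672 units, next to 1005 for Gnal, 75.2 for Adcy3 and 18.4 for Gng13. The sum is therefore no measure of the marker set as a whole.

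The receptor rows fell into 55 clusters on 18 chromosomes, with gaps under 500 kb within a cluster. Of these, 25 clusters held a row above the floor in at least 4 libraries and 11 held a row with a mean of at least 100 units. The 23 clusters of at least 10 rows held 1003 rows, and 19 of the 23 had a row above the floor in at least 4 libraries. The largest, on chromosome 2 from 85171054 to 90122730 (mm9), held 221 rows, of which 210 were at the floor in every library and 4 were above it in at least 4. A chromosome 7 cluster from 109625287 to 112517869 held 129 rows, and 5 of its 6 rows above the floor in at least 4 libraries averaged at least 100 units. The cluster on chromosome 17 from 37222136 to 38473042, which adjoins major histocompatibility genes, held 9 such rows among 45, led by Olfr90 at 111 units. By chromosome, 15 of 240 rows on chromosome 7, 6 of 286 on chromosome 2 and 10 of 48 on chromosome 17 were above the floor in at least 4 libraries.

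**Figure D1:**
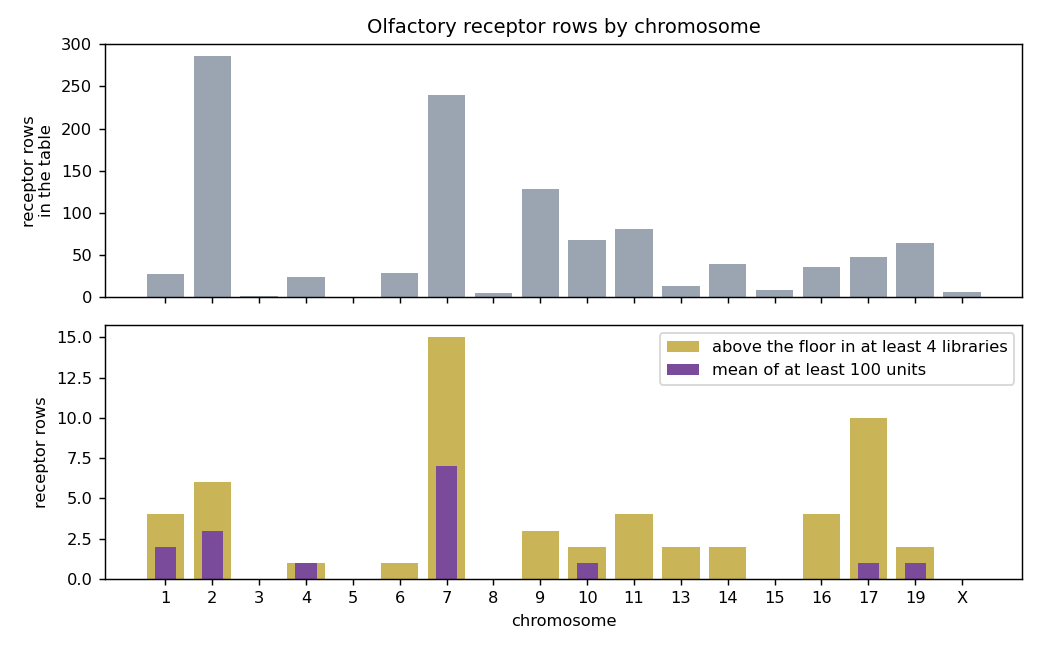
Olfactory receptor rows by chromosome: the upper bars count all rows in the table, and the lower bars count rows above the floor in at least 4 of 14 libraries (wide) and rows with a mean of at least 100 units (narrow). Chromosome 2 has the most rows, 286, and chromosome 7 the most rows above the floor, 15, of which 7 average at least 100 units.

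A small number of rows carried nearly all the signal. Over the 14 livers 16 rows averaged at least 100 units and 7 at least 1000. These levels compare rows of unequal length, but the 12 highest kept their order per kb of exon, from 2541 units per kb for Olfr368 to 117 for Olfr272. Olfr368 (chromosome 2, 37187269 to 37188253, plus strand) averaged 2356 ± 129 units in HFWD+sugar livers, 2562 ± 241 in HFWD livers and 2612 ± 168 in chow livers (SD, n = 5, 5 and 4). Olfr433 (chromosome 1, 175972064 to 175973067, plus strand) averaged 2058 ± 163 in HFWD+sugar livers, 2018 ± 153 in HFWD livers and 1835 ± 143 in chow livers. Both rows overlapped between all 3 diets.

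Olfr12, Olfr57, Olfr543 and Olfr549 averaged 1732, 1466, 962 and 731 units over the 14 livers. Olfr669, Olfr541 and Olfr272 followed at 387, 381 and 154. Over the 16 rows of at least 100 units the coefficient of variation over the 14 livers was 8.26% to 45.8%, with a median of 17.1%, next to a median of 17.5% over the 4838 rows of other genes with means between 100 and 3000 units. The highest of the 16, 45.8%, was that of Olfr554. Olfr541 stood apart in a single library. It had 61.0 units in chow 2 against 340.0, 361.9 and 520.5 in the other chow livers, 281.0 to 390.1 in HFWD+sugar livers and 410.0 to 574.0 in HFWD livers.

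**Figure D2:**
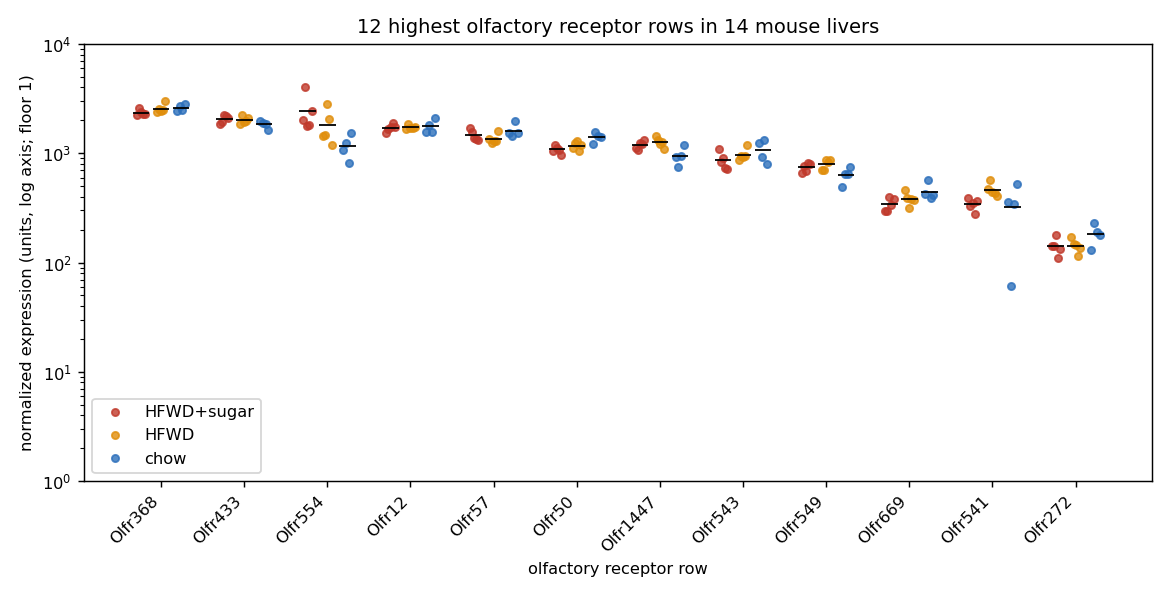
The 12 olfactory receptor rows with the highest means, on a log axis of normalized expression units: each point is a library, and black lines are group means of HFWD+sugar (n = 5), HFWD (n = 5) and chow (n = 4) livers. Olfr554 averages 2423 units in HFWD+sugar livers, 1810 in HFWD livers and 1162 in chow livers, and Olfr541 has 1 low chow library at 61.0.

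Diet was compared by limma on log2(value + 1) over the 14770 rows above the floor in at least 4 libraries, with p-values adjusted over all of them and a threshold of 0.05. Of the receptor rows 56 could be tested. In HFWD+sugar against chow, 2 of the 56 (3.57%) were called, 1 higher and 1 lower, where 9.05% of all rows were called, 5.67% higher and 3.38% lower. In HFWD against chow 1 of the 56 (1.79%) was called, a higher one, where 3.38% of all rows were called, 2.44% higher and 0.934% lower. In HFWD+sugar against HFWD 0 were called, and 0 (0%) of all rows were. In that last comparison limma gave 2 receptor rows an unadjusted p under 0.05 (3.57%, against 8.62% of all rows), and the smallest adjusted p was 0.525, for Olfr1033. The median log2 difference of the receptor rows was 0.08 in HFWD+sugar against chow, 0.08 in HFWD against chow and 0.03 in HFWD+sugar against HFWD, next to 0.12, 0.04 and 0.05 over all rows.

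**Figure D3:**
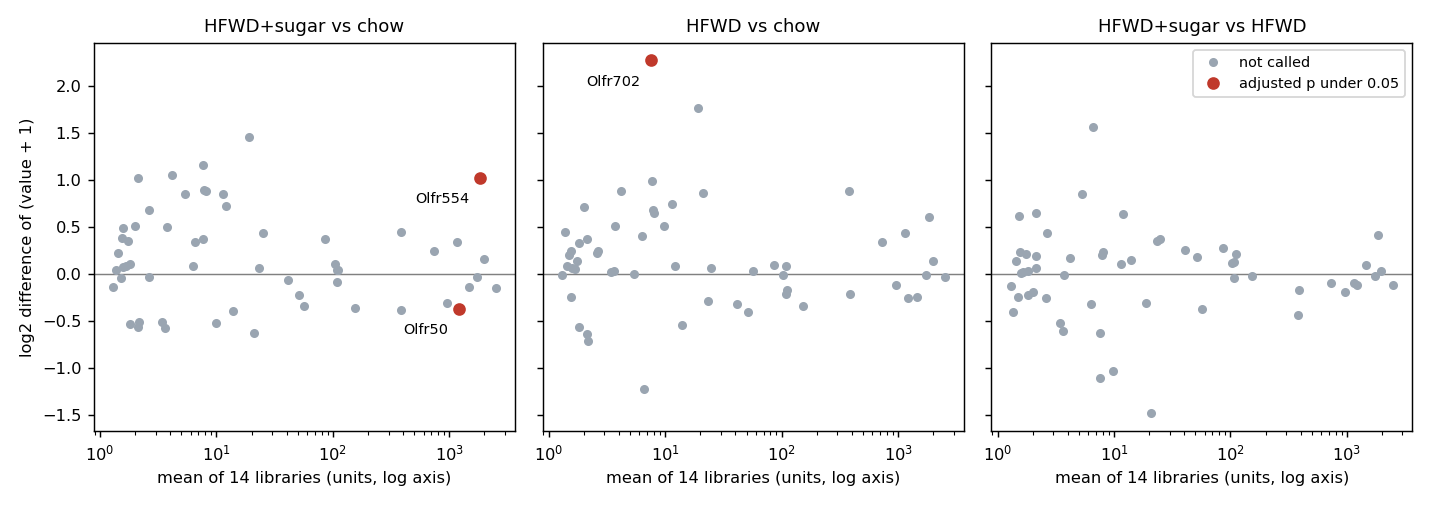
Log2 difference of (value + 1) of the 56 tested receptor rows against their mean over 14 livers (log axis), in each of 3 comparisons, the first named diet over the second. Red points passed an adjusted p of 0.05: Olfr554 and Olfr50 in HFWD+sugar against chow, Olfr702 in HFWD against chow, and none (0) in HFWD+sugar against HFWD.

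Olfr554 (chromosome 7, 109788762 to 109789715, plus strand) was the row that rose on HFWD+sugar. It had 2005, 4080, 1782, 1827 and 2421 units in HFWD+sugar livers, 1451, 1471, 2848, 2079 and 1198 in HFWD livers, and 1067, 1241, 815.4 and 1526 in chow livers. All 5 HFWD+sugar livers lay above all 4 chow livers, while HFWD livers overlapped both. The log2 difference was 1.02 (SE 0.26, limma adjusted p = 0.0218) in HFWD+sugar against chow and 0.60 (SE 0.26, adjusted p = 0.25) in HFWD against chow. The call ended without chow 1, without chow 3 and with no filter on low rows. Over 21 alternatives the adjusted p was 0.00585 to 0.0966, and with single libraries left out the log2 difference was 0.81 to 1.16.

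Olfr50 (chromosome 2, 36648758 to 36649888, plus strand) fell on HFWD+sugar. It had 1054, 1202, 1119, 1076 and 974.0 units in HFWD+sugar livers, 1129, 1232, 1291, 1042 and 1186 in HFWD livers, and 1221, 1566, 1426 and 1404 in chow livers. The HFWD+sugar and chow livers did not overlap, and HFWD lay between them on average. The log2 difference was -0.37 (SE 0.09, limma adjusted p = 0.0225) in HFWD+sugar against chow and -0.25 (SE 0.09, adjusted p = 0.168) in HFWD against chow. The call ended without chow 3, HFWD+sugar 4 or HFWD+sugar 5 and in a fit of the 2 groups alone, with adjusted p from 0.00809 to 0.0618 over 21 alternatives. Without chow 3 neither Olfr554 nor Olfr50 was called (0 receptor rows).

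Olfr702 (chromosome 7, 113967003 to 113970257, minus strand) rose on HFWD, at a level of a few reads. It had 27.99, 8.306, 11.55, 13.29 and 7.922 units in HFWD livers, and 5.129, 1.0, 1.441 and 1.0 in chow livers. The groups did not overlap, but 1 read was worth 6.85 units in chow 4, so its value of 1.0 means less than about 1 read. The log2 difference was 2.27 (SE 0.49, limma adjusted p = 0.0149), and it was called under all 21 alternatives, with adjusted p up to 0.0488. Its size depended on the pseudocount: the log2 difference was 0.93 with a pseudocount of 10, and up to 2.65 over the alternatives. In HFWD+sugar livers it had 6.217, 1.777, 4.512, 7.421 and 9.011 units, and the log2 difference from chow was 1.16 (SE 0.49, adjusted p = 0.146). Olfr1447, at 1197 ± 103 units in HFWD+sugar livers, 1276 ± 132 in HFWD livers and 952 ± 178 in chow livers, did not pass in either comparison with chow (adjusted p = 0.0787 and adjusted p = 0.0538 by limma).

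Of the odorant signalling genes 5 were tested. The row named Gnal, 1 of the 5, was called higher in both comparisons with chow (limma adjusted p = 0.031 for HFWD+sugar and adjusted p = 0.0252 for HFWD). In these comparisons 9.05% and 3.38% of all rows were called, and 0 of the 5 were called lower. Whether that row holds the level of the gene Gnal was not tested. None (0) of the 6 tested trafficking and choice genes and not the lineage gene Gng13 passed in any of the 3 comparisons.

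Expressed neighbours were counted on each strand. A neighbour is a row of another gene within 50 kb, expressed if it averaged at least 100 units. Expressed refers to the row, and whether each row holds the level of the gene of its name was not tested. Of the 56 rows above the floor in at least 4 libraries, 3 (5.36%) had such a neighbour on the opposite strand and 2 (3.57%) on the same strand, next to 24 (2.4%) and 24 (2.4%) of the 1000 rows at the floor. Of the 16 rows with a mean of at least 100 units, 0 had one on either strand. Of the rows above the floor in 1 to 3 libraries, 3 (5.36%) had one on the opposite strand and 5 (8.93%) on the same. A row of another gene at any level lay within 50 kb of 29 rows (51.8%) above the floor in at least 4 libraries. For the 1000 rows at the floor this was so for 224 (22.4%). By strand, 26 of the 56 (46.4%) had such a row opposite and 8 (14.3%) on the same strand. Of the 16 these were 10 (62.5%) and 0, and of the 1000 they were 138 (13.8%) and 128 (12.8%). Of rows above the floor in 1 to 3 libraries they were 15 (26.8%) and 17 (30.4%). Within 200 kb the counts of expressed neighbours were 19 (33.9%) opposite and 17 (30.4%) same for rows above the floor in at least 4 libraries. For rows above it in 1 to 3 libraries they were 21 (37.5%) and 16 (28.6%). Of the 16 they were 5 (31.2%) and 5 (31.2%), and of the 1000 they were 167 (16.7%) and 175 (17.5%).

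The position of a gene relative to the receptor row was also counted in another way. This measure was devised after the surroundings of the high rows had been looked at: it counts receptor rows that are the nearest row of the table, on the strand opposite a gene, to that gene within 50 kb. With genes of the table as well as pseudogenes and long noncoding genes that have no row, 31 of the 56 rows (55.4%) and 13 of the 16 with a mean of at least 100 (81.2%) were nearest to a gene on the opposite strand, against 91 of the 1000 at the floor (9.1%). For genes on the same strand the counts were 5 of 56 (8.93%), 0 of 16 and 122 of 1000 (12.2%). Of the rows above the floor in 1 to 3 libraries, 6 of 56 (10.7%) were nearest to a gene on the opposite strand and 13 (23.2%) on the same. The first form tried had no limit on distance and took every annotated gene type, and gave 36 of 56 opposite and 13 of 56 same, with 147 and 200 of the 1000. Within 10 kb the counts of the 56 were 16 opposite and 2 same.

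Among genes with a row, 20 of the 56 receptor rows had such a gene opposite. Olfr368 lies 17.3 kb from Pdcl, a phosducin-like protein, whose own row averaged 57.8 units. Olfr433 lies 10.2 kb from Ifi205, an interferon-activated gene, with a row at 2.01 units, and Olfr12 lies 16.1 kb from Myeov2, at 10.9. Olfr543 lies 7.0 kb from Rrm1, the large subunit of ribonucleotide reductase, at 6.70, and Olfr549 lies 2.69 kb from Trim21, a ubiquitin ligase that binds antibodies, at 8.80. Per kb of exon the receptor row was higher than the row of the gene opposite in 19 of the 20. This count was favoured by choosing receptor rows above the floor. For each of the 20, 1 gene was kept, the nearest or 1 of several that overlapped the receptor row. For Olfr56, at 27.55 units per kb, a farther gene opposite, Psme2b-ps, had 27.6. Of those 20 genes' rows 0 averaged at least 100 units and their median was 2.22, against 5 of 41 and a median of 1.0 for genes opposite receptor rows at the floor. Pseudogenes with no row lie opposite others: Gm13436 is 13.4 kb from Olfr50, Gm5512 is 3.99 kb from Olfr1447 and Cct3-ps1 is 8.15 kb from Olfr272.

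Stretches of genome nearest to each receptor row were then searched for copies of other genes' transcripts, since several of those pseudogenes are such copies. This search was also devised after the values were seen, and it was run in 2 forms. The first form took alignments of at least 85% identity and 200 bases over at least 50% of a transcript, and it gave near-equal counts on the strands in 3 of 4 classes: 32 of the 56 rows had a copy on the opposite strand and 30 on the same, 10 and 10 of the 16 high rows, and 492 and 489 of the 1000 rows at the floor. Of the rows above the floor in 1 to 3 libraries, 23 of 56 (41.1%) had one on the opposite strand and 32 (57.1%) on the same. Its matches were then read, and a second form was set to leave out those that looked like repeats. It required 90% identity and 300 bases, left out parents that matched more than 5 receptor rows, and left out predicted genes. In this form 15 of the 56 (26.8%) had a copy on the opposite strand and 2 (3.57%) on the same, 7 and 2 of the 16, and 31 (3.1%) and 45 (4.5%) of the 1000. The stretches searched differed in length, with a median of 51.7 kb for the 16, 35.9 kb for the 56 and 33.3 kb for the 1000. At 95% identity the counts of the 56 were 10 and 0, and at 98% they were 8 and 0. The strand difference in copies therefore rests on filters chosen with these data in view.

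**Figure D4:**
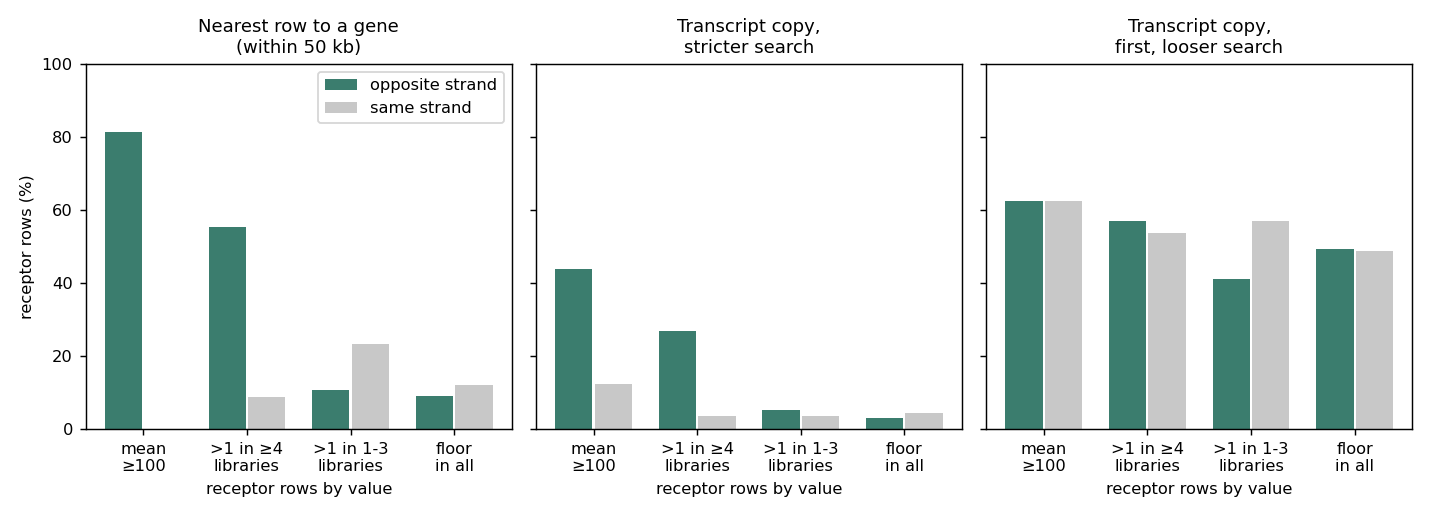
Share of receptor rows (%) that are the nearest row to another gene within 50 kb (left), and that have a transcript copy in their stretch by the second, stricter search (middle) and the first, looser search (right), on the opposite and on the same strand, in 4 classes of receptor row by value. Of rows above the floor in at least 4 libraries 55.4% and 8.93% are nearest to a gene on the opposite and the same strand; for copies the shares are 26.8% and 3.57% by the stricter search, and 57.1% and 53.6% by the looser one.

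The closest copies opposite high rows are shown here as stretches of the mm9 genome beside the coding part of the parent transcript (GENCODE vM1), to show how alike copy and parent are. Each is the window of 90 coding bases with the most differences, read 5′ to 3′ on the copy's strand, and capitals mark bases that differ. Opposite Olfr50 lies a copy of Rpl18, a protein of the large ribosomal subunit, at 99.1% identity over 639 aligned bases (window chr2:36663585-36663674, minus strand, with 3 differences).
Rpl18 copy near Olfr50: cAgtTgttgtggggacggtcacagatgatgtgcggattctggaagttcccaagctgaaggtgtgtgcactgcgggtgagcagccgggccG
Rpl18 transcript: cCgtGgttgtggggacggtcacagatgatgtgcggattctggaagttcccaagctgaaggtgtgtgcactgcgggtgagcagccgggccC

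Opposite Olfr1447 lies a copy of Rmnd1, a factor of mitochondrial translation, at 99.0% identity over 1760 aligned bases (window chr19:12980671-12980760, plus strand, with 3 differences).
Rmnd1 copy near Olfr1447: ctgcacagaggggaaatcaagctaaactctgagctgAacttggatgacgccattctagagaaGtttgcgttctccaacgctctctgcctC
Rmnd1 transcript: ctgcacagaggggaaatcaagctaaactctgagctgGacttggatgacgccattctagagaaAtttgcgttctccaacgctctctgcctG

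Opposite Olfr669 lies a copy of Lamtor3, a scaffold of the lysosomal Ragulator complex, at 98.7% identity over 1292 aligned bases (window chr7:112098693-112098782, minus strand, with 1 difference).
Lamtor3 copy near Olfr669: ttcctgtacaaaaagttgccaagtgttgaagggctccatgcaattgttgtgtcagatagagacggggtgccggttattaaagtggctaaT
Lamtor3 transcript: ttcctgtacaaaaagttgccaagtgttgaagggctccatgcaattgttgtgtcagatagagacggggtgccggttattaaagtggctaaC

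Opposite Olfr554, 5.76 kb away, lies a copy of the whole transcript of Rnf125, a ubiquitin ligase of antiviral signalling, at 98.1% identity. The Rnf125 row had 251.8, 484.7, 240.1, 294.9 and 382.9 units in HFWD+sugar livers, 169.6, 176.7, 258.3, 313.2 and 110.9 in HFWD livers, and 166.3, 153.3, 76.4 and 164.4 in chow livers. It was highest in HFWD+sugar 2 and lowest in chow 3, the libraries where Olfr554 was highest and lowest. Its log2 difference was 1.25 (SE 0.30, limma adjusted p = 0.0157) in HFWD+sugar against chow and 0.53 (SE 0.30, adjusted p = 0.409) in HFWD against chow. Across the 14 livers, which share the 3 diets, Rnf125 was the row that correlated best with Olfr554 (Pearson r = 0.918). Each r here and below was taken on log2(value + 1), and rows above the floor in at least 4 libraries were compared.

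Parent rows of the other copies did not show an r of that size. Of the 14 opposite-strand copies whose parent had a row above the floor in at least 4 libraries, 5 had a positive r and 1, Rnf125, had an r over 0.5. The next highest r was 0.252, the median was -0.148 and the lowest was -0.69. Rpl18, Rmnd1 and Lamtor3 had an r of -0.419, -0.419 and 0.0428 with Olfr50, Olfr1447 and Olfr669. Since a row can differ from the gene of its name here, the row nearest to each parent on the other strand was read as well. That gave 14 values of r from -0.495 to 0.565, with a median of 0.0453 and 7 of them positive. For Rnf125 that row was Trappc8, 48.5 kb from Rnf125, with an r of 0.455 with Olfr554 (rank 2405 of 14768 rows). For Cct3 it was 1700021C14Rik, 0.117 kb from Cct3, with an r of 0.565 with Olfr272, where the Cct3 row had 0.034. A best r of that size was also common. Over the 12 highest receptor rows the best-correlated row had an r of 0.846 to 0.955. For 3 of them it was over that of Olfr554. A best-correlated row is picked for its r, and the copy search was devised after the values were seen. Of the 14 parent rows, Rnf125 ranked 1 by r with its receptor row. The next best was Scoc, at rank 4690 of 14768 with Olfr119.

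**Figure D5:**
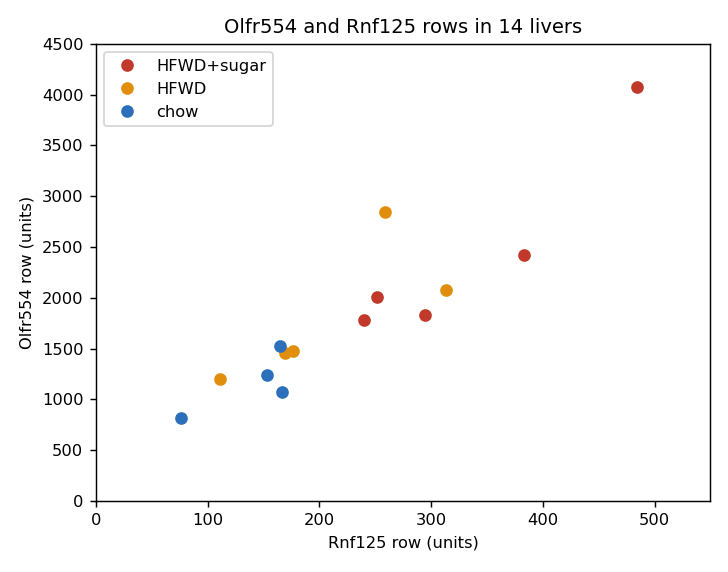
Units of the Olfr554 row against units of the Rnf125 row in 14 livers, each point a library, coloured by diet. HFWD+sugar 2 is highest in both, at 4080 and 484.7 units, and chow 3 lowest in both, at 815.4 and 76.4.

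Of the 16 rows with a mean of at least 100 units, 15 were nearest to a gene on the opposite strand or had an opposite-strand copy by the stricter search, and the other was Olfr541. Of the 56 rows above the floor in at least 4 libraries, 35 (62.5%) had either and 21 neither, against 104 of the 1000 rows at the floor (10.4%). Both measures were devised with the high rows in view, so this count is a description. Whether reads of these genes or copies were counted in receptor rows was not tested, and neither the strand setting of the counting nor its handling of multiply matching reads is given in the sources used here.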

How the data were processed

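Liver RNA of 14 libraries was analysed from 1 table that the authors deposited as normalized expression values, a linear signal per gene for single libraries with a floor of exactly 1. Per the submitters' processing notes, FastQC, TopHat2 2.0, SAMtools and build mm9 were used. How reads were counted (tool, strand, multiply matching reads) and scaled is not given in the sources used here. Of low values, 54.5% to 65.0% were whole multiples of a read's worth (tolerance 0.02), so reads were not recovered and no count test was run. Depth limits the precision of low values.

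Rows above 1 in at least 4 libraries (14770) entered limma 3.58.1 in R 4.3.3, on log2(value + 1) with a variance trend, 1 model of 3 group means and Benjamini-Hochberg adjustment at 0.05, 2-sided. This scale understates changes of low rows. The fit was tested on simulated data. Of the 1112 rows, 1110 had the same coordinates and strand in GENCODE vM1 (mm9). Copies were searched with blastn 2.17.0 in stretches reaching halfway to the next row on the same strand, up to 100 kb, leaving out parents within 200 kb.

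Named rows are those called in at least 1 comparison, the 12 highest by mean and a list reported outside the nose; rows named beyond these were picked with their values in view. The members and lists were chosen with earlier results of these data known. Alternatives were another pseudocount, other filters, 2 other scalings, array weights, a fit of 2 groups, other windows and leaving out each library. 1 row of the family is not reported here.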

Additional observations from a re-analysis of the deposited data

Results flagged for a closer look

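Values were looked at again where 1 library lay far from the others of its diet by Dixon's ratio at 95%. This was so for 7 of 45 groups of values examined, and chance gives about 1 in 20. HFWD 5 was above the other HFWD livers in 3 of the highest rows: Olfr368 at 2981 units against 2388 to 2534, Olfr57 at 1600 against 1255 to 1340, and Olfr543 at 1180 against 875.7 to 951.4. HFWD+sugar 2 was above the other HFWD+sugar livers in Olfr554, at 4080 units against 1782 to 2421. It was also above them in the units summed over all receptor rows, at 17290 against 14950 to 15460. That sum includes Olfr554, so the 2 flags are not separate. Olfr702 was high in HFWD 1, at 27.99 units against 7.922 to 13.29, and in chow 1, at 5.129 units against 1.0 to 1.441, both values of a few reads.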

How the results depend on the processing

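The counts of receptor rows called were small and moved with the settings; the causes were not tested. In HFWD+sugar against chow the 2 calls became 1 with no filter, 5 with array weights and 1 in a fit of the 2 groups alone, where 3.39%, 14.7% and 5.39% of all rows were called, and 0 to 3 when a library was left out, where 4.64% to 12.0% of all rows were called. In HFWD against chow the 1 call became 2 with a pseudocount of 10 and 4 with array weights, where 3.28% and 6.91% of all rows were called, and 1 to 3 when a library was left out, where 1.77% to 7.13% were. In HFWD+sugar against HFWD it was 0 under each alternative run. Rows above the floor numbered 106 to 112, 51 to 55 and 25 to 27 (in at least 1, at least 4 and all libraries) when a library was left out, and a minimum of 10 units left 37, 30 and 22. Expressed neighbours of the 56 rows numbered 0 (opposite) and 0 (same) within 10 kb, and 19 and 17 within 200 kb, and with a neighbour of at least 1000 units the same-strand count was 0. Clusters numbered 50 with a gap of 1 Mb. Rows nearest to a gene on the same strand numbered 2 within 10 kb, 10 within 200 kb and 13 in the first form of that measure, and on the opposite strand 16 within 10 kb. Copies numbered 32 (opposite) and 30 (same) in the first form of the search, 0 (same) at 95% identity, and 8 and 0 at 98%. Of 819 log2 differences recomputed for 13 rows, 784 kept direction and side of the threshold, 7 lost a call, 9 gained one and 19 turned sign, all of the last in differences that were not called. In HFWD+sugar against chow these were Olfr433 (-0.046 with median centring), Olfr12 (0.016 with quantile normalization, 0.054 with array weights, and -0.090 to 0.058 with a library left out) and Olfr541 (-0.23 to 0.79 with a library left out). In HFWD against chow they were Olfr368 (0.00819 with array weights, -0.086 to 0.0057 with a library left out) and Olfr12 (0.078 with array weights, -0.071 to 0.077 with a library left out). In HFWD+sugar against HFWD they were Olfr433 (-0.12 with median centring, -0.0022 to 0.067 with a library left out), Olfr57 (-0.044 with median centring), Olfr12 (0.039 with quantile normalization, -0.054 to 0.019 with a library left out) and Olfr272 (-0.11 to 0.060 with a library left out). No paired analysis was possible because replicate numbers only name libraries and the labels pair none across diets. Below about 20 units values rest on a few reads.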
